A study of Mus musculus with 6 samples.

Results

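Axon guidance genes encode the cues and receptors by which cells attract, repel or hold on to their neighbours. The set described here was defined by a rule on gene symbols, which was chosen with earlier results of these data known. It holds the semaphorins and their plexin receptors, the ephrins and their Eph receptors, the netrins and Unc5 receptors, and the Slits and Robo receptors. The rule found 66 of the 24940 genes in the table, 35 ligands and 31 receptors, and 44 of them had enough counts to be tested. The cells were primary hepatic stellate cells, the pericyte-like, vitamin A-storing cells of the liver, isolated from female C57BL/6JBomTac mice. Of the 6 libraries, 3 came from cells given 10 µM obeticholic acid (OCA), an agonist of the bile acid receptor FXR, and 3 from cells given the vehicle DMSO at a dilution of 1:1000. Both were added to the medium 2 days after isolation and the cells were harvested after 6 hours. The sources used here give neither the age of the mice nor whether libraries A, B and C trace to different animals or cultures. The p-values therefore weigh the difference between groups against the spread of these libraries only, and that spread may be technical.

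Semaphorins act on plexins, and the secreted class 3 semaphorins mostly need a neuropilin as co-receptor. Ephrins are tethered to the cell surface, the A type by a lipid anchor and the B type by a membrane-spanning segment, and signal to Eph receptor tyrosine kinases on the cell they touch, with a return signal into the ephrin-bearing cell. Secreted Slits bind Robo receptors, and netrins bind Dcc, neogenin and the Unc5 receptors. Outside the nervous system, these families pattern blood vessels and the contacts between mesenchymal and endothelial cells.

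Column totals lay between 12260882 and 16336240 counts, and the 66 guidance genes took 0.539%, 0.593% and 0.535% of them in OCA libraries A, B and C, and 0.593%, 0.564% and 0.544% in DMSO libraries A, B and C. A count of 3 in a library corresponds to between 0.181 and 0.251 CPM (counts scaled to a common library size, TMM-adjusted), which sets the floor for the scarce members. Stellate cell markers summed to between 2691 and 3344 CPM in OCA libraries and between 3051 and 3453 CPM in DMSO libraries, with all 10 markers tested and 1 of them, Reln, lower in OCA. Endothelial markers summed to between 2.71 and 6.08 CPM in OCA and between 3.97 and 5.94 CPM in DMSO. The hepatocyte, cholangiocyte, macrophage, mesothelial and portal, and Schwann and neuronal lists stayed at or under 8.44 CPM in OCA and 12.2 CPM in DMSO. Tested were 1 of 6 endothelial, 1 of 6 hepatocyte, 2 of 6 macrophage and 2 of 4 cholangiocyte markers. So were 2 of 5 mesothelial and portal and 1 of 5 Schwann and neuronal markers. None of the tested ones passed, and the other markers had too few counts to be tested. Krt7 and Thy1 were at 0 in every library. In bulk RNA, fewer cells of a type and less RNA per cell cannot be told apart. As a check of the treatment, Abcb11, the bile salt export pump and an FXR target, averaged 4.88 ± 0.602 CPM in OCA and 0.149 ± 0.0447 CPM in DMSO (SD, n = 3 each). The DMSO mean lies under the floor, so the size of the rise of Abcb11 is uncertain. Osgin1, another FXR-responsive gene, averaged 221 ± 14.9 CPM in OCA and 79.9 ± 5.76 CPM in DMSO. A pattern of single libraries touches the results below. OCA library B held the highest OCA value in 32 of the 44 tested guidance genes (72.7%), against 33.3% of all tested genes. DMSO library A held the highest DMSO value in 56.8% of the members, against 35.9% of all tested genes. The shares of all genes were not matched for transcript length. A curve of each library's log2 deviation on length, over all tested genes, showed the same pattern at the 8993 bases of Plxna1. It stood at -0.108, -0.005 and -0.121 in OCA libraries A, B and C, and at 0.197, 0.058 and 0.003 in DMSO libraries A, B and C. The part of length in the library pattern was not tested.

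In OCA-treated cells 3 guidance genes were higher and 5 were lower than in DMSO cells, leaving 36 that did not pass (edgeR quasi-likelihood test, Benjamini-Hochberg adjusted p under 0.05 over 12687 genes). The higher genes were the semaphorin Sema6c, the semaphorin receptor Plxna1 and the Eph receptor Epha7. The lower genes were the ephrins Efnb2 and Efna5, the semaphorin Sema3a, the Slit receptor Robo1 and the Eph receptor Epha2. The share called was 6.82% higher and 11.4% lower among the tested members, beside 2.18% higher and 3.03% lower among all tested genes. Guidance transcripts are long. Among the 2233 tested genes at least as long as the median tested member, 2.64% were higher and 10.2% were lower in OCA. The members' share of lower genes lay near this 10.2%, but it also covers members shorter than that, among them Epha2 and Efnb2. The part of length in the members' share was not tested. The median log2 fold change of OCA over DMSO was -0.06 over the members and 0.00 over all tested genes, with 16 members above 0 and 28 below. In 5 members every OCA library lay above every DMSO library and in 7 every OCA library lay below, beside 11.6% and 11.3% of all tested genes. Of the tested ligands, 6 lay above 0 and 17 below with a median of -0.14, while receptors split into 10 above and 11 below with a median of -0.00; the difference between ligands and receptors was not tested.

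**Figure D1:**
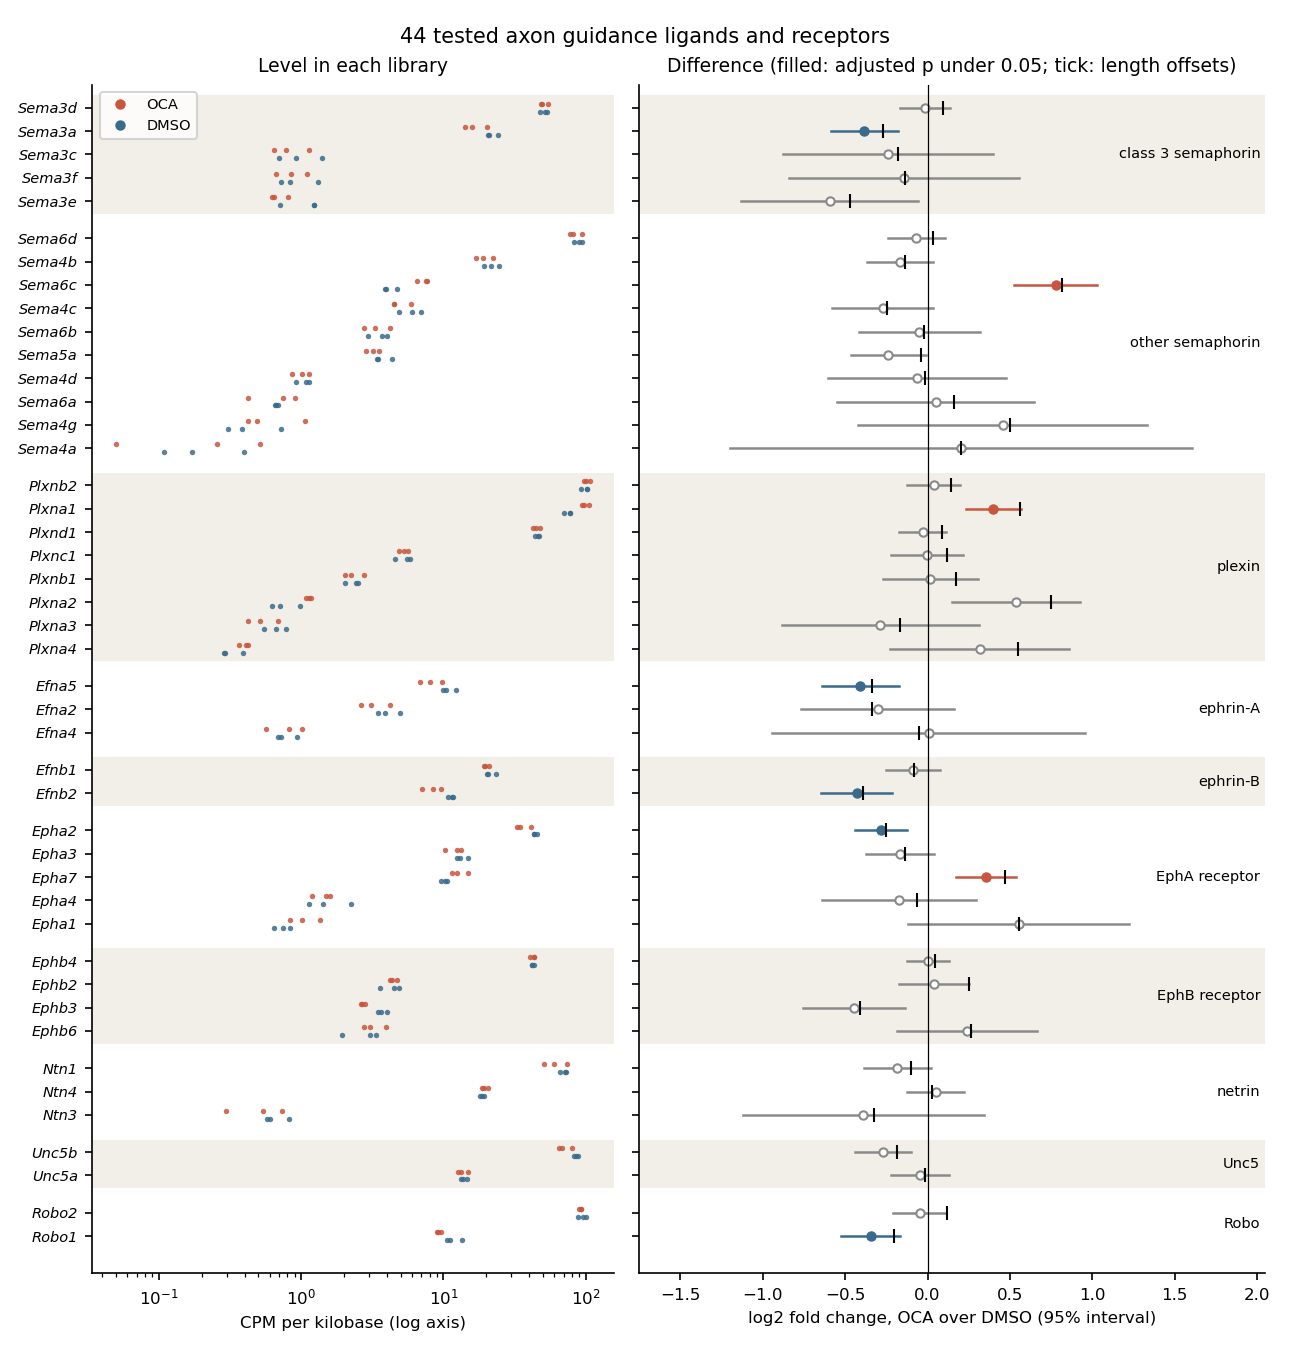
Left, level of each tested guidance gene in each library in CPM per kilobase of transcript on a log axis; right, log2 fold change of OCA over DMSO with its 95% interval, filled where the adjusted p was under 0.05, and a tick for the value with length offsets. The levels run from under 1 to about 100 CPM per kilobase, 3 genes lie filled to the right of 0 and 5 to the left.

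Receptors outnumbered ligands among the abundant guidance genes of these cells. Set per kilobase of transcript, so that genes can be compared, 18 members averaged 10 CPM per kilobase or more, 11 of them receptors and 7 ligands. The most abundant was Plxnb2, a receptor of class 4 semaphorins, with 102 CPM per kilobase in OCA and 99.2 in DMSO. Robo2 followed with 91.5 in OCA and 94.5 in DMSO, then Plxna1 with 98.9 in OCA and 75.1 in DMSO. The order of these receptors rests on the mean over all 6 libraries, and these receptors overlapped one another in part: Plxnb2 and Robo2 in the DMSO libraries, and Plxnb2 and Plxna1 in the OCA libraries. Next came the membrane-bound Sema6d, the netrin receptor Unc5b and the netrin Ntn1, with 84.7, 70.7 and 61.6 CPM per kilobase in OCA and 88.9, 85.4 and 70.0 in DMSO. The 22 members left out of the test had at most 11.5 counts in any library and a mean of at most 0.605 CPM in either group. They were Epha5, Epha6, Epha8, Epha10, Ephb1, Robo3, Robo4, Slit1, Slit2, Slit3, Unc5c, Unc5d, Sema3b, Sema3g, Sema4f, Sema5b, Sema7a, Plxnb3, Efna1, Efna3, Efnb3 and Ntn5, of which Epha6 and Unc5c had no count in any library.

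Among the semaphorins, the ligands of the plexins, 1 rose and 1 fell in OCA, and 13 of the 15 tested did not pass. Among all tested genes 2.18% were higher and 3.03% lower. Sema6c, a membrane-spanning class 6 semaphorin, showed the steepest change of all tested members. It had 31.1, 31.3 and 26.8 CPM in OCA libraries A, B and C, against 19.5, 16 and 16.3 CPM in DMSO libraries A, B and C. The lowest OCA library stood well above the highest DMSO library. Sema6c was 1.71-fold higher in OCA (95% interval 1.44 to 2.04; log2 fold change 0.78, SE 0.12, edgeR adjusted p = 0.000461). It was called in each of the 6 fits that left out a library, the only called member of which that was true, as well as with offsets for transcript length (0.81 on the log2 scale, edgeR adjusted p = 7.93e-05). Its transcript NM_001272024 is 4117 bases long and lies at chr3:95160420-95174050 on the plus strand of mm10.

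The 250 bases before the RefSeq start of Sema6c that matches the deposited transcript (GRCm38.p6, chr3:95160170-95160419, plus strand, 5′ to 3′) are shown because this gene changed most. They have a GC content of 57.6% and 15 CpG dinucleotides, beside medians of 52.4% and 6 over the 32851 RefSeq promoter windows of that length.
Sema6c: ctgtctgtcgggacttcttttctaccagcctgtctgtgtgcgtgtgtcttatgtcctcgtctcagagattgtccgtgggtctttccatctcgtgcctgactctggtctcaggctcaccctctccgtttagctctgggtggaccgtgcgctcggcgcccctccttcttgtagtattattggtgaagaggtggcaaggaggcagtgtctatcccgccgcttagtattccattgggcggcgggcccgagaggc
The window was searched on both strands for AGGTCA and GGGTCA, the core letters of many nuclear receptors, and for GGTCANTGACC, their inverted repeat with a 1-base spacer, the arrangement best known for FXR. A match to the inverted repeat can overlap a match to either hexamer. None of these letters was found in it; another RefSeq start of Sema6c, at base 95164339 of chromosome 3, has a window that holds GGGTCA on the plus strand, 217 bases before that start. Among all windows 14% hold AGGTCA, 11.6% hold GGGTCA and 0.0335% hold the inverted repeat. A match or its lack describes only the letters of the window. Of the 8 called members, 7 had a RefSeq promoter entry, and for 5 of these an entry started at the same base as the deposited transcript. The window of Efnb2, whose entry starts elsewhere, holds GGGTCA on the minus strand, 247 bases before the start.

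Sema3a, a secreted class 3 semaphorin that repels axons and endothelial cells through neuropilin-1 and plexin-A receptors, fell in OCA. It had 97.2, 137 and 108 CPM in OCA libraries A, B and C, against 164, 143 and 140 CPM in DMSO libraries A, B and C. The groups did not overlap, but OCA library B came close to the lower DMSO libraries. The fold was 0.766 (95% interval 0.666 to 0.881; log2 fold change -0.38, SE 0.10, edgeR adjusted p = 0.0256). Sema3a missed the threshold when OCA A, DMSO A, OCA C or DMSO B was left out, with edgeR adjusted p between 0.0568 and 0.158, and with length offsets (-0.27, edgeR adjusted p = 0.0577). Its transcript NM_009152, 6831 bases long, lies at chr5:13399309-13603485 on the plus strand of mm10.

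The other 4 tested class 3 semaphorins also had log2 fold changes below 0 and none passed, and Sema3d lay above 0 once length offsets were applied. Sema3d, the class 3 member with the highest level, averaged 328 ± 19.7 CPM in OCA and 332 ± 20.5 CPM in DMSO (SD, n = 3 each), and the interval of its log2 fold change ran from -0.17 to 0.13. Sema3c, at 4.21 ± 1.25 CPM in OCA and 4.96 ± 1.79 CPM in DMSO, was scarce, and its interval ran from -0.88 to 0.40. Outside class 3, Sema6d averaged 550 ± 56.3 CPM in OCA and 577 ± 37.4 CPM in DMSO, an interval of -0.24 to 0.10. Sema6d belongs to the same class as Sema6c and was the more abundant of the pair per kilobase, yet it showed no detectable change. Sema4b, a membrane-bound class 4 semaphorin, averaged 76.2 ± 10.6 CPM in OCA and 85.6 ± 10.2 CPM in DMSO with overlapping groups, and passed the test only where OCA library B was left out (edgeR adjusted p = 0.0464).

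On the receptor side, Plxna1 rose in OCA while the other 7 tested plexins did not pass, beside 2.18% higher among all tested genes. Plxna1 encodes plexin-A1, a receptor for class 3 semaphorins together with neuropilins and for class 6 semaphorins such as Sema6D. It had 841, 955 and 873 CPM in OCA libraries A, B and C, against 693, 699 and 634 CPM in DMSO libraries A, B and C. All OCA libraries stood above all DMSO libraries with a gap wider than the DMSO range. The fold was 1.32 (95% interval 1.18 to 1.48; log2 fold change 0.40, SE 0.08, edgeR adjusted p = 0.00492). With length offsets the log2 fold change was 0.56 (edgeR adjusted p = 0.000141), and of the fits that left out a library, the one without DMSO C lost the call (edgeR adjusted p = 0.0516). Its transcript NM_008881, 8993 bases long, lies at chr6:89316314-89362613 on the minus strand of mm10. In the GENCODE M21 annotation, 10.7% of its exonic bases overlap the antisense gene Gm26811, and the sources used here do not say whether reads were counted by strand. Reads of the antisense gene therefore cannot be told apart from those of Plxna1, and the share of bases does not give the share of reads. Both the level and the fold change of Plxna1 are uncertain for this reason.

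Plxnb2 averaged 657 ± 33.9 CPM in OCA and 641 ± 34.7 CPM in DMSO (SD, n = 3 each), and the interval of its log2 fold change, -0.12 to 0.20, holds no change as large as that fitted for Plxna1. Plxnd1, the receptor of Sema3E in blood vessels, averaged 308 ± 17.7 CPM in OCA and 314 ± 11.9 CPM in DMSO. The groups overlapped in both of these plexins. Summed over the family, plexin levels came to 243, 272 and 251 CPM per kilobase in OCA libraries A, B and C, against 236, 237 and 215 CPM per kilobase in DMSO libraries A, B and C. That sum is made up mostly of Plxnb2, Plxna1 and Plxnd1. Plxna2, a close relative of Plxna1 with a transcript of 11001 bases, had 11.8, 12.8 and 12.4 CPM in OCA and 10.8, 7.78 and 6.86 CPM in DMSO. Its groups did not overlap, but it missed the threshold (log2 fold change 0.54, 95% interval 0.15 to 0.93, edgeR adjusted p = 0.108) and passed it with length offsets (0.75, edgeR adjusted p = 0.0123).

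The co-receptors that join plexins to class 3 semaphorins were uneven. Nrp1, neuropilin-1, had 152, 119 and 119 CPM in OCA libraries A, B and C, against 118, 99.8 and 99.8 CPM in DMSO libraries A, B and C. OCA libraries B and C lay only just above DMSO library A. Its log2 fold change of 0.29 (SE 0.09) missed the threshold at an edgeR adjusted p of 0.0669 and passed it with length offsets (edgeR adjusted p = 0.0059), without OCA B (0.00831) and without DMSO A (0.0396). Nrp2, neuropilin-2, had 34 counts summed over the OCA libraries and 23 over the DMSO libraries, too few to be tested.

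**Figure D2:**
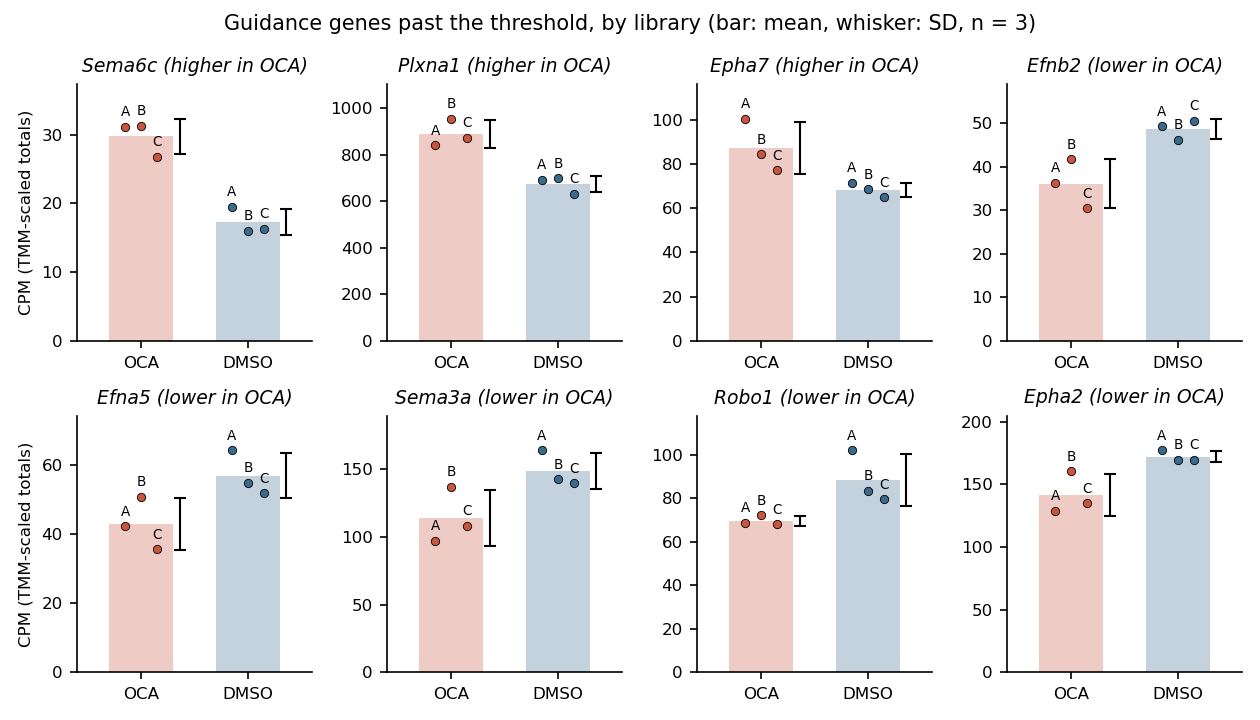
CPM of the 8 guidance genes that passed the test in each library, OCA left and DMSO right; bars are means and whiskers SD (n = 3). In each panel the 3 OCA libraries lie on one side of the 3 DMSO libraries, with the narrowest gaps for their level in Efna5, Sema3a and Epha2, where OCA library B lies next to the DMSO libraries.

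Ephrins, the surface-bound ligands, fell in OCA in 2 of 5 tested genes and 3 did not pass, beside 3.03% lower among all tested genes. Of the 6 fits that each left out a library, 2 kept the call of Efnb2 and 1 that of Efna5. Efnb2 encodes ephrin-B2, the membrane-spanning partner of EphB4 that marks arterial endothelium and pericytes. It had 36.3, 41.6 and 30.4 CPM in OCA libraries A, B and C, against 49.3, 46.2 and 50.6 CPM in DMSO libraries A, B and C. The groups did not overlap, and OCA library B was again the OCA library nearest to DMSO. Efnb2 had a fold of 0.742 (95% interval 0.639 to 0.861; log2 fold change -0.43, SE 0.10, edgeR adjusted p = 0.0186). Length offsets left the call in place (-0.39, edgeR adjusted p = 0.0183), but leaving out OCA A, DMSO A, OCA C or DMSO C ended it, with edgeR adjusted p between 0.0587 and 0.113. The transcript is NM_010111, 4312 bases long, at chr8:8617439-8660773 on the minus strand of mm10.

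Efna5 encodes ephrin-A5, a lipid-anchored ligand of EphA receptors. It had 42.3, 50.9 and 35.6 CPM in OCA libraries A, B and C, against 64.2, 54.8 and 51.8 CPM in DMSO libraries A, B and C. OCA library B and DMSO library C differed by less than the spread within either group. The fold was 0.754 (95% interval 0.642 to 0.885; log2 fold change -0.41, SE 0.11, edgeR adjusted p = 0.0371). Every fit that left out a library other than OCA B lost the call (edgeR adjusted p between 0.0513 and 0.238), and so did length offsets (edgeR adjusted p = 0.0511). The log2 fold change of Efna5 was -0.40 when OCA A was left out, -0.47 when DMSO C was and -0.43 when DMSO B was, about the size found with all libraries or larger. It was -0.29 when OCA C was left out, -0.31 when DMSO A was and -0.33 with length offsets. The transcript is NM_207654, 5252 bases long, at chr17:62602957-62881317 on the minus strand of mm10.

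Of the ephrins that did not pass, Efnb1, ephrin-B1, was the most abundant at 67.1 ± 2.94 CPM in OCA and 71.2 ± 5.79 CPM in DMSO (SD, n = 3 each), and its interval of -0.25 to 0.07 on the log2 scale held no fall of the size fitted for Efnb2. Efna2 averaged 7.07 ± 1.75 CPM in OCA and 8.70 ± 1.65 CPM in DMSO. Efna4 averaged 1.27 ± 0.355 CPM in OCA and 1.24 ± 0.221 CPM in DMSO, and 10.5% of its exonic bases overlap the antisense gene 4731419I09Rik, so its count is uncertain. Summed over each type, ephrin-A levels were 12.8 ± 1.52 CPM per kilobase in OCA and 16.1 ± 1.09 in DMSO, and ephrin-B levels were 28.5 ± 2.12 in OCA and 32.7 ± 1.97 in DMSO. Neither sum overlapped between the groups, though the ephrin-B sum was 30.7 CPM per kilobase in OCA library B and 31.0 in DMSO library B. Among single tested genes, 11.3% had every OCA library below every DMSO library. These sums are descriptions and follow mainly Efna5 and the B ephrins Efnb1 and Efnb2. Since they contain the called genes Efna5 and Efnb2, their separation adds nothing to those calls.

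Of the Eph receptors, which read the ephrins, Epha7 rose, Epha2 fell, and 7 of the 9 tested did not pass. The shares over all tested genes were 2.18% higher and 3.03% lower. Epha7, a receptor of A-type ephrins, had 100.3, 84.4 and 77.2 CPM in OCA libraries A, B and C, against 71.5, 68.5 and 65.0 CPM in DMSO libraries A, B and C. The groups did not overlap, and OCA library A was the highest by a wide margin. The fold was 1.28 (95% interval 1.13 to 1.45; log2 fold change 0.35, SE 0.09, edgeR adjusted p = 0.0217). With length offsets it was 0.47 on the log2 scale (edgeR adjusted p = 0.000642), and the fits without OCA A, DMSO B or DMSO C lost the call (edgeR adjusted p between 0.0688 and 0.149). The transcript NM_010141, 6731 bases long, lies at chr4:28813131-28967503 on the plus strand of mm10.

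Epha2, a receptor tyrosine kinase of epithelia and vessels that also binds A-type ephrins, was the most abundant EphA receptor. It had 129, 161 and 135 CPM in OCA libraries A, B and C, against 177, 169.8 and 169.5 CPM in DMSO libraries A, B and C. The DMSO libraries lay close together, and OCA library B was the OCA value nearest to them. The fold was 0.822 (95% interval 0.737 to 0.917; log2 fold change -0.28, SE 0.08, edgeR adjusted p = 0.0338). Every fit that left out a library other than OCA B lost the call (edgeR adjusted p between 0.0698 and 0.194), whereas length offsets left it in place (-0.25, edgeR adjusted p = 0.0394). The transcript NM_010139, 3913 bases long, lies at chr4:141301221-141329384 on the plus strand of mm10. The opposite directions of Epha7 and Epha2 were found in the same libraries, and Epha3, another receptor of the A type, did not pass at 47.5 ± 6.01 CPM in OCA and 53.3 ± 4.95 CPM in DMSO (SD, n = 3 each).

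The 250 bases before the RefSeq starts of these oppositely changed receptors are shown for comparison (GRCm38.p6, plus strand, 5′ to 3′). They lie at chr4:28812881-28813130 for Epha7 and chr4:141300971-141301220 for Epha2, and capitals mark a match to AGGTCA or its reverse complement.
Epha7: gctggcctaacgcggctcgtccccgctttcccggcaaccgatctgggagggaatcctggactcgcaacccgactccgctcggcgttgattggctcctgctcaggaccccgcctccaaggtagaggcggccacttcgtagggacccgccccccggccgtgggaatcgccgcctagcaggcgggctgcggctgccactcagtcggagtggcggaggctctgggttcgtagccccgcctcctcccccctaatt
Epha2: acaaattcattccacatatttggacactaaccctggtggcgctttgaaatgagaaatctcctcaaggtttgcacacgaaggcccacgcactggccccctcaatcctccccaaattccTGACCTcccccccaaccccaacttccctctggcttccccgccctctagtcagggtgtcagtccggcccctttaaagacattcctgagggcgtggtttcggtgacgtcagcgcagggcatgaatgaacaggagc
The Epha7 window has a GC content of 69.2% and 25 CpG dinucleotides and none of the searched letters. The Epha2 window has a GC content of 55.6% and 9 CpG dinucleotides, and holds AGGTCA on the minus strand, 133 bases before the start, letters that 14% of all windows hold.

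Among EphB receptors none passed. Ephb4, the receptor of ephrin-B2, had 187, 189 and 177 CPM in OCA libraries A, B and C, against 187, 183 and 182 CPM in DMSO libraries A, B and C. The libraries of both groups were interleaved, and the interval of its log2 fold change, -0.13 to 0.13, held no change of the size fitted for Efnb2. The ligand Efnb2 thus passed the test where its receptor Ephb4 did not; the difference between these genes was not tested. Ephb2 averaged 48.5 ± 3.07 CPM in OCA and 47.1 ± 7.21 CPM in DMSO (SD, n = 3 each). Ephb3 had 11, 11.6 and 10.9 CPM in OCA against 15.0, 14.3 and 16.4 CPM in DMSO, every OCA library below every DMSO library, but it missed the threshold (log2 fold change -0.44, edgeR adjusted p = 0.0926).

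The Slit and Robo genes were almost all receptor. Robo2 averaged 817 ± 16.1 CPM in OCA and 844 ± 52.1 CPM in DMSO (SD, n = 3 each) and did not pass, with an interval of -0.21 to 0.12 on the log2 scale. Robo1, another Slit receptor, fell in OCA. It had 68.6, 72.2 and 68.1 CPM in OCA libraries A, B and C, against 102, 83.5 and 79.4 CPM in DMSO libraries A, B and C. The OCA libraries lay close together and DMSO library A stood above the other DMSO libraries. The fold was 0.788 (95% interval 0.696 to 0.892; log2 fold change -0.34, SE 0.09, edgeR adjusted p = 0.0248). Robo1 missed the threshold when OCA A, DMSO A or OCA C was left out (edgeR adjusted p between 0.0903 and 0.161), without both OCA B and DMSO A (edgeR adjusted p = 0.0505), and with length offsets (-0.21, edgeR adjusted p = 0.0911). Its transcript NM_019413, 7537 bases long, lies at chr16:72663149-73046100 on the plus strand of mm10.

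The ligands of these receptors were near the floor of the measurement. Slit1 had 5 counts summed over the OCA libraries and 4.5 over the DMSO libraries, Slit2 had 1 and 3, and Slit3 had 0 and 1. No Slit transcript reached 10 counts over all 6 libraries, with transcripts 4958 to 9968 bases long. Set per kilobase, Robo genes summed to 101 ± 2.06 CPM per kilobase in OCA and 106 ± 6.38 in DMSO, while the Slits summed to 0.0269 ± 0.0237 in OCA and 0.0316 ± 0.0131 in DMSO. Any Slit protein acting on these receptors in the culture was not measured.

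None of the netrins and Unc5 receptors passed the test. Ntn1, netrin-1, had 294, 422 and 343 CPM in OCA libraries A, B and C, against 415, 409 and 379 CPM in DMSO libraries A, B and C. OCA library B exceeded every DMSO library while OCA libraries A and C lay below them. Its log2 fold change was -0.18 (95% interval -0.39 to 0.02, edgeR adjusted p = 0.316) and, without OCA library B, the edgeR adjusted p was 0.0131. Ntn4, a laminin-related netrin of basement membranes, averaged 46.6 ± 2.23 CPM in OCA and 45.0 ± 1.44 CPM in DMSO (SD, n = 3 each), and Ntn3 averaged 2.55 ± 1.06 CPM in OCA and 3.27 ± 0.676 CPM in DMSO.

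Unc5b, a netrin-1 receptor known from repulsion of axons and vessel sprouts, had 376, 468 and 397 CPM in OCA libraries A, B and C, against 502, 513 and 483 CPM in DMSO libraries A, B and C. Every OCA library lay below every DMSO library. It missed the threshold (log2 fold change -0.27, 95% interval -0.44 to -0.10, edgeR adjusted p = 0.0585). It was close enough to the threshold that the tool decided the call: it passed with DESeq2 (adjusted p = 0.0139), with limma-voom (adjusted p = 0.0398) and without OCA library B (edgeR adjusted p = 0.00489), and was far from it with length offsets (edgeR adjusted p = 0.235). Unc5a averaged 53.8 ± 4.50 CPM in OCA and 55.5 ± 2.78 CPM in DMSO. Of the netrin receptors outside the Unc5 family, Neo1, neogenin, averaged 177 ± 1.13 CPM in OCA and 192 ± 11.3 CPM in DMSO and did not pass (edgeR adjusted p = 0.354). Dcc had no count in OCA and 1 count over the DMSO libraries.

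Transcript length bears on how these changes are read. The tested guidance genes had a median length of 5093.5 bases (1590 to 12554), against 2933 bases for all tested genes, and 20 of the 44 (45.5%) fell in the longest eighth, from 5780 bases up. Across all tested genes longer transcripts had lower fold changes: Pearson's r between log2 fold change and log2 length was -0.20 and Spearman's rank correlation -0.33, a description over genes of the same 6 libraries. Over the 44 members the values were 0.07 and 0.06. In the longest eighth the median log2 fold change was -0.02 for the 20 members and -0.14 for all genes, and the other 24 members had a median of -0.12. The lower members were 3913 to 7537 bases long (median 5252) and the higher members 4117 to 8993 (median 6731). These ranges overlapped, and Sema6c, the higher member with the steepest change, was shorter than Efnb2, Efna5, Sema3a and Robo1. The difference in length between higher and lower members was not tested. Over all genes the median length was 3355.5 bases for those higher in OCA and 5987.5 bases for those lower.

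**Figure D3:**
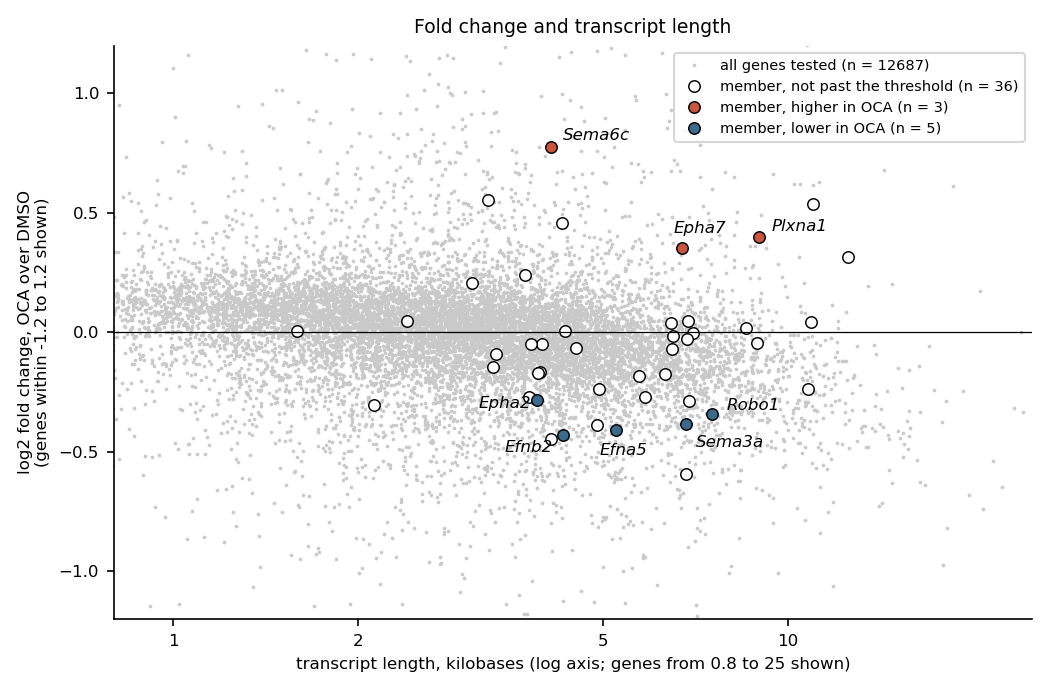
Log2 fold change of OCA over DMSO against transcript length in kilobases on a log axis, for the tested genes that fall within the axes (grey) and the 44 guidance genes (outlined). The grey cloud bends below 0 towards long transcripts, while the long members Plxna1 (8993 bases) and Epha7 (6731 bases) lie above 0.

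With offsets that level the trend on length in each library, 4 members were higher (Sema6c, Plxna1, Epha7 and Plxna2) and 2 lower (Efnb2 and Epha2), beside 2.75% and 1.79% of all tested genes. Over all genes the offsets changed the split from 276 higher and 384 lower to 349 higher and 227 lower. The calls of Sema3a, Efna5 and Robo1 were lost under the offsets, with the adjusted p given above for each. The part of transcript length in the remaining calls was not tested further.

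The lower calls also rested on which libraries were compared. All 5 lower members had their highest OCA value in library B, and 4 of the 5 had their highest DMSO value in library A. OCA B and DMSO A also stood highest of their groups in the length curve given above for Plxna1. How far the library pattern and transcript length overlap was not tested. Without OCA library B, 8 members were lower and 3 higher, beside 5.9% and 2.83% of all genes tested in that fit. Without OCA A, OCA C or DMSO A, 0 members were lower, and without DMSO B or DMSO C, 2 were lower. Over all genes the number lower ran between 104 and 758 in the same fits. The log2 fold changes of the 8 called members kept their sign in every one of these fits. Their groups did not overlap, so leaving out a library could hardly have reversed a sign.

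**Figure D4:**
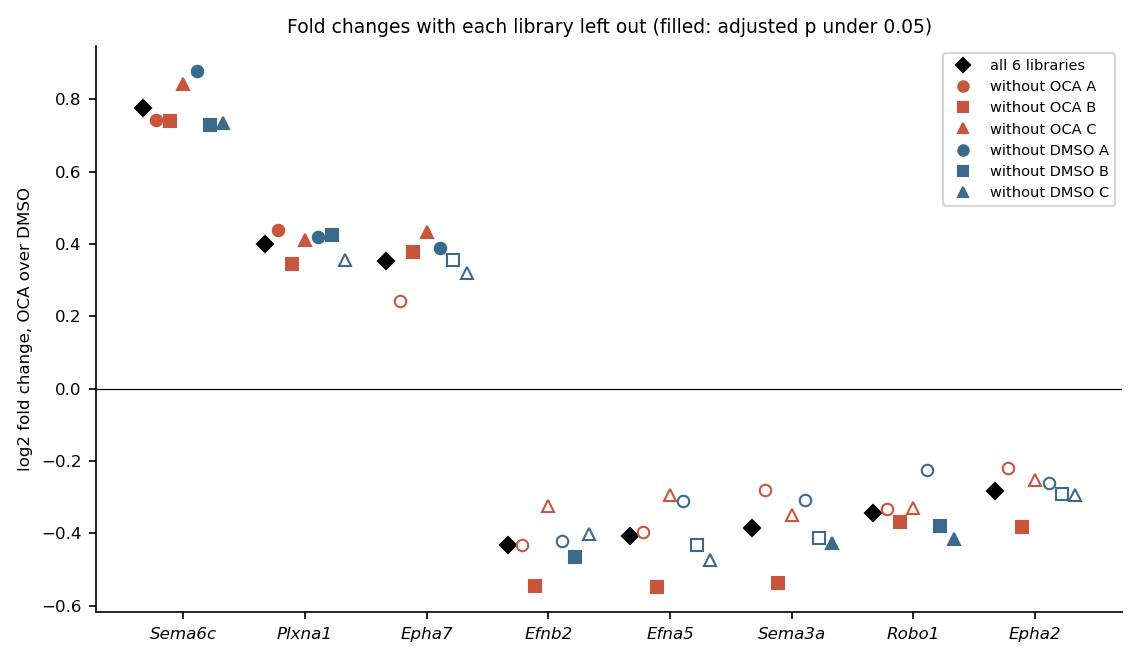
Log2 fold change of OCA over DMSO for the 8 called guidance genes with all 6 libraries (diamonds) and with each library left out, filled where the adjusted p was under 0.05. Sema6c stays filled throughout. In the lower genes the fits without OCA B are filled and, except in Robo1, lie lowest, and several of the others are open. In Robo1 the fit without DMSO C lies lowest.

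Genes that work with these cues but are outside the symbol rule were taken from a list of co-receptors, other guidance cues and intracellular effectors. This list was drawn up with earlier results of these data known, so its shares are a description only. Of its 101 genes in the table, 72 were tested, of which 3 were higher in OCA (4.17%), 7 were lower (9.72%) and 62 did not pass. All tested genes were higher in 2.18% and lower in 3.03%, and those at least as long as the median tested member were lower in 10.2%. The tested genes of the list were shorter, with a median of 4134 bases against 5093.5 bases for the tested members. The 3 higher genes were all effectors: the actin-binding protein Ablim1, the Ena/VASP protein Enah, which extends actin filaments at the leading edge, and the tyrosine kinase Fes. Ablim1 had 101, 76.4 and 84.9 CPM in OCA libraries A, B and C, against 22.1, 20 and 19.9 CPM in DMSO libraries A, B and C. Enah had 68.5, 62.3 and 65.5 CPM in OCA, against 34.8, 28.7 and 31.0 CPM in DMSO. Both groups were far apart, with log2 fold changes of 2.08 (SE 0.10, edgeR adjusted p = 6.5e-11) for Ablim1 and 1.05 (SE 0.09, edgeR adjusted p = 1.91e-07) for Enah. Fes averaged 41.1 ± 3.29 CPM in OCA and 31.7 ± 2.74 CPM in DMSO (SD, n = 3 each; log2 fold change 0.37, edgeR adjusted p = 0.0324), and missed the threshold when DMSO A, OCA A or DMSO B was left out (edgeR adjusted p between 0.0954 and 0.158).

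Of the 7 lower genes, the 4 with the smallest p were Reln, Dock1, Arhgef12 and Cdon. Reln, which encodes the secreted glycoprotein reelin, had 261, 489 and 225 CPM in OCA libraries A, B and C, against 632, 508 and 502 CPM in DMSO libraries A, B and C. OCA library B lay just under the lowest DMSO library, and OCA libraries A and C far below it. Its log2 fold change was -0.75 (SE 0.18, edgeR adjusted p = 0.0198), and it missed the threshold when OCA A, DMSO A or OCA C was left out (edgeR adjusted p between 0.102 and 0.132); its transcript is 11632 bases long. Reln also missed it in DESeq2 (adjusted p = 0.284) and with robust estimation in edgeR (adjusted p = 0.364), with fold changes near that value (-0.75 in each). Dock1, an exchange factor that activates Rac, averaged 120 ± 13.7 CPM in OCA and 150 ± 12.4 CPM in DMSO (edgeR adjusted p = 0.0251). Arhgef12, a guanine nucleotide exchange factor that binds plexin-B receptors, averaged 293 ± 16.7 CPM in OCA and 356 ± 20.3 CPM in DMSO (edgeR adjusted p = 0.0254), and 8.88% of its exonic bases overlap the pseudogene Gm5831 on the other strand. Cdon, a cell surface protein that assists hedgehog reception, averaged 19.8 ± 0.796 CPM in OCA and 26.7 ± 1.58 CPM in DMSO (edgeR adjusted p = 0.0299). With length offsets Dock1, Arhgef12 and Cdon did not pass, at edgeR adjusted p of 0.0807, 0.519 and 0.153. Of the 6 fits that each left out a library, Dock1 passed in 2, Arhgef12 in 3 and Cdon in 1, that without OCA B. The adjusted p where they missed lay between 0.0532 and 0.154 for Dock1, between 0.116 and 0.137 for Arhgef12 and between 0.0615 and 0.0976 for Cdon. None of the 13 tested co-receptors passed.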

How the data were processed

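Polyadenylated RNA of primary stellate cells, in 3 OCA and 3 DMSO libraries, was sequenced from NEBNext Ultra libraries, per the labels' protocols. The submitters' processing notes name STAR, HOMER and the build mm10; the sources used here do not give their versions, the strand setting or the handling of repeated reads. The authors deposited 1 table of exon counts per gene, not normalized, per the file headers, with the RefSeq transcript, its coordinates and its Length. The deposited counts come in steps of 0.5 and were treated like estimated counts (expected counts), which need not be whole; 26.5% to 29.8% of values per column were not whole and were rounded (ties to even) before testing. No column of sample values was left out.

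OCA was compared with DMSO in edgeR 4.0.16 (R 4.3.3) with filterByExpr, TMM scaling and the quasi-likelihood test without robust estimation, two-sided, with Benjamini-Hochberg adjustment over 12687 genes and a threshold of 0.05. The SE is the log2 fold change divided by the square root of F. CPM used TMM-scaled totals and unrounded counts; levels between genes are CPM per 1000 bases of Length. The common biological coefficient of variation was 7.98%. Libraries of the same group differed beyond counting noise (chi-square per degree of freedom 4.4 to 8.00). Length offsets came from a loess curve (span 0.5) of each library's log2 CPM deviation on log2 length. Alternatives also used DESeq2 1.42.0 and limma 3.58.1. The steps were tested on simulated data that held no length trend and no deviating library, so that test says nothing about either. Promoter windows came from RefSeq (GRCm38.p6), and exon overlaps from GENCODE M21.

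Named genes were all members past the threshold, up to 3 of each family with the highest level, partners of called members, and listed pathway genes by smallest p (up to 4 per direction), with Nrp1, Nrp2, Dcc, Neo1 and the treatment genes. Members and lists were chosen with earlier results of these data known. The 95% intervals come from the quasi-likelihood fit and so include the spread between libraries of a group. The floor is the CPM of a count of 3 in each library and includes no such spread.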

Additional observations from a re-analysis of the deposited data

How the results depend on the processing

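All 8 called guidance genes kept the direction of their change under the 19 alternatives. These refit the same libraries, and the groups of the 8 genes did not overlap, so a kept direction adds little. None of the 703 values of the 37 named genes reversed a call, and 11 named genes that had not passed the test changed sign under some setting. No called member lost its call under DESeq2, limma-voom, RLE, upper-quartile or total scaling, other filters or unrounded counts; robust estimation lost 1 (Sema3a, edgeR adjusted p = 0.128) and length offsets lost 3. The median log2 fold change of the members stayed between -0.14 and -0.02. Length offsets gave 2 lower members and 227 lower genes in all; lower genes numbered 703 with no filter and 605 without OCA B and DMSO A. Leaving out each library gave 1 to 3 higher and 0 to 8 lower members, and 161 to 363 higher and 104 to 758 lower genes; the count of lower members was 8 without OCA B. With the letter as a replicate block, 3 members were higher and 6 lower, and 306 genes were higher and 508 lower in all; Nrp1 and Unc5b passed under the block (edgeR adjusted p = 0.00957 and 0.024). The letters were not taken as pairs, since the deviations of same-letter libraries correlated at 0.000511, -0.0433 and 0.0535. For members that did not pass, differences inside the intervals given were not detected at this depth with 3 libraries a group. The 22 members left out of the test, with means of at most 0.605 CPM in either group, had too few counts.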
